A study of Homo sapiens with 12 samples.

Results

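This report follows 6 genes, ELAVL1, PAWR, OFD1, ROCK2, CUX1 and MGEA5, through a pooled CRISPR/Cas9 knockout screen. They are 6 of the 20915 gene names targeted by the library, and every sgRNA entry carrying one of these names was used, 36 of 123411 entries. The genes were chosen by their values in N87 cells grown for 14 days without drug, where their sgRNAs were more abundant than at the start. That comparison is therefore given below as a description. Its ranks and calls for the 6 genes are those of the choice and support nothing, and the tests are those in OE19 cells and under lapatinib.

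N87 and OE19 are established human cell lines with HER2 amplification, of gastric and gastroesophageal origin. Cells carried the lentiviral GeCKO v2 library (Cas9 and 1 sgRNA on the same vector, delivered as library A and library B at a multiplicity of infection of 0.3) and were selected with puromycin for 7 days. Each line was then sampled as lapatinib-treated cells (14 days at 0.5 µM for N87 and 1 µM for OE19), as vehicle-treated cells (DMSO, 14 days) and as baseline cells taken after selection. The paper names 2 separate infection replicates for each line, and each condition has 2 replicate libraries. All 12 libraries hold Cas9-edited, puromycin-selected pools, and lapatinib blocks the kinase activity of EGFR and HER2.

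In such a pool, an sgRNA becomes more frequent when cells carrying it outgrow the others, and less frequent when they are lost. ELAVL1 (HuR) binds AU-rich elements in messenger RNAs and stabilizes many of them. PAWR (Par-4) is a pro-apoptotic protein first described in prostate cells, and OFD1 sits at centrioles and centriolar satellites and is needed to build primary cilia. ROCK2 is a serine/threonine kinase that drives actomyosin contraction. CUX1 is a CUT-domain homeobox transcription factor whose gene is deleted in myeloid tumours, and MGEA5 (current symbol OGA) encodes O-GlcNAcase, the enzyme that removes O-GlcNAc from nuclear and cytoplasmic proteins.

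On GRCh37, the GENCODE annotation places ELAVL1 on chromosome 19 (8023457 to 8070543, minus strand), PAWR on chromosome 12 (79968759 to 80084744, minus strand) and OFD1 on chromosome X (13752862 to 13796074, plus strand). ROCK2 lies on chromosome 2 (11319885 to 11488456, minus strand), CUX1 on chromosome 7 (101459184 to 101927250, plus strand) and MGEA5 on chromosome 10 (103544200 to 103578222, minus strand). No gene shares a chromosome with another of the 6. Each had 3 sgRNAs in library A and 3 in library B. The sgRNA sequences were not used here, so the cut sites within the genes are not given.

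The 12 libraries held between 13105805 and 33743599 reads, with a median of 57 to 238 reads per sgRNA, lowest in the lapatinib-treated OE19 cells. Of the 36 sgRNAs, 35 had enough reads to be tested (at least 40 reads over the 4 libraries of a comparison). The exception was the OFD1 sgRNA HGLibB_34254, which had 0 to 12 reads in every library, so OFD1 is described by 5 sgRNAs. The 2000 control guides, which target no gene, had a median log2 fold change of 0.09 in N87 and 0.19 in OE19 for vehicle over baseline, against gene medians centred on 0.02 in N87 and 0.01 in OE19. In N87 cells under lapatinib, 52.3% of the control guides tested differed from vehicle at an adjusted p under 0.05, and their log2 fold changes ran from -1.65 to 1.81 between the 5th and 95th percentiles.

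After 14 days without drug, sgRNAs of all 6 genes were more abundant in N87 vehicle cells than in N87 baseline cells. The values below are normalized counts (reads divided by a median-of-ratios size factor of each library) summed over the sgRNAs of a gene. ELAVL1, the RNA-binding protein, stood at 1399 and 2307 in the vehicle replicates 1 and 2, against 1125 and 1214 at baseline, a 1.58-fold difference of means. PAWR, the pro-apoptotic protein, had 1117.5 and 1630.2 in vehicle cells, against 895 and 976 at baseline (1.47-fold). OFD1, the centriole protein, had 1289.7 and 2028 in vehicle cells, against 1089 and 1265 at baseline (1.41-fold). For these 3 genes the second vehicle replicate was well above the first.

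ROCK2, the kinase of actomyosin contraction, differed from this in that its vehicle replicates were nearly equal, at 1184 and 1179.7, against 919 and 870.2 at baseline (1.32-fold). CUX1, the homeobox factor, likewise had 1864 and 1916 in vehicle cells, against 1550.25 and 1562 at baseline (1.21-fold). MGEA5, the O-GlcNAcase gene, had 1666 and 2059 in vehicle cells, against 1343 and 1501 at baseline (1.31-fold). In each of the 6 genes both vehicle libraries lay above both baseline libraries, as did those of 28.1% of all genes. The median fold over all genes was 1.02, with 0.811 and 1.13 at the 5th and 95th percentiles.

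**Figure D1:**
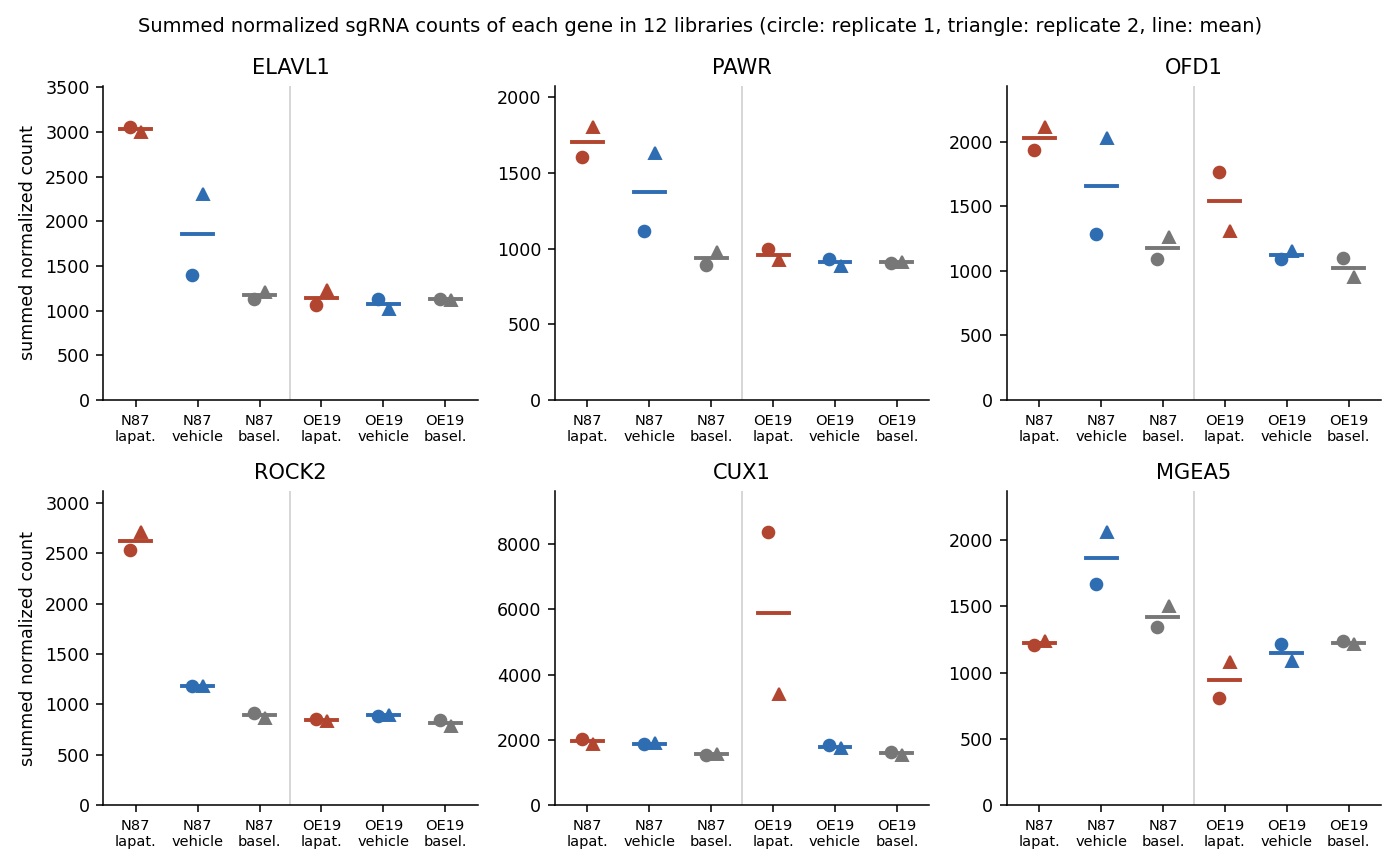
Summed normalized sgRNA counts of each gene (vertical axis, linear, from 0) in the lapatinib, vehicle and baseline libraries of N87 and OE19, with a circle for replicate 1, a triangle for replicate 2 and a line at their mean. In N87, vehicle libraries lie above baseline libraries for all 6 genes. The N87 mean is highest under lapatinib for every gene except MGEA5, which is lower under lapatinib than in vehicle cells. ROCK2 stands at 2533.5 and 2709.8 under lapatinib. Of all genes, 70.5% have both N87 lapatinib libraries above both vehicle libraries. In OE19, the lapatinib libraries of CUX1 reach 8370.1 and 3406.

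Most of the individual sgRNAs shared this direction. The log2 fold change (vehicle over baseline) was above 0 for 33 of the 35 tested sgRNAs, and the 2 below 0 were the PAWR sgRNA HGLibA_43579 (-0.07) and the MGEA5 sgRNA HGLibA_37444 (-0.10). The median over sgRNAs was 0.74 ± 0.31 for ELAVL1, 0.61 ± 0.34 for PAWR, 0.52 ± 0.16 for OFD1, 0.35 ± 0.27 for ROCK2, 0.34 ± 0.21 for CUX1 and 0.34 ± 0.29 for MGEA5 (SD over 6 sgRNAs, 5 for OFD1). Medians over all genes ran from -0.38 to 0.18 between the 5th and 95th percentiles, and single control guides from -0.17 to 0.37. The highest single value was 1.08, for the ELAVL1 sgRNA HGLibB_15858, with 183 and 385 normalized counts in vehicle cells against 119 and 148 at baseline. The 3 sgRNAs of ELAVL1 in library A were close to each other (0.69, 0.97 and 0.78), and those in library B were spread more widely (0.26, 0.47 and 1.08).

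No single sgRNA of the 6 genes passed an adjusted p of 0.05 in edgeR's quasi-likelihood test in this comparison, where 0% of all sgRNAs tested were called higher and 0.0399% lower. The genes were selected on the aggregate of their sgRNA ranks. By robust rank aggregation, which asks whether the sgRNAs of a gene rank near the top together, 12 genes or 0.0574% of 20894 were called higher and 2.28% lower. ELAVL1, PAWR, ROCK2, OFD1, CUX1 and MGEA5 held ranks 1, 2, 3, 5, 7 and 8. The last gene inside the threshold was ARID1B (median log2 fold change 0.29) and the first outside was RFFL (0.32), so the medians did not separate at that border.

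The second N87 vehicle replicate carried much of the difference for part of the genes. Set against the baseline mean, ELAVL1 was 1.97-fold in vehicle replicate 2 and 1.20-fold in replicate 1. PAWR was 1.74-fold and 1.19-fold, OFD1 1.72-fold and 1.10-fold, and MGEA5 1.45-fold and 1.17-fold, replicate 2 first. ROCK2 was 1.32-fold in both, and CUX1 was 1.23-fold in replicate 2 and 1.20-fold in replicate 1. Over all genes the 5th to 95th percentiles were 0.754 to 1.17 in replicate 2 and 0.844 to 1.13 in replicate 1, so 5 of the 6 genes lay above that range in both libraries and OFD1 in replicate 2 alone. For ELAVL1, PAWR, OFD1 and MGEA5 the choice leaned on this library. Without vehicle replicate 2 their median log2 fold changes fell to 0.22, 0.30, 0.15 and 0.16, in that order. Those of ROCK2 (0.40) and CUX1 (0.37) stayed above their 0.35 and 0.34 with both replicates.

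**Figure D2:**
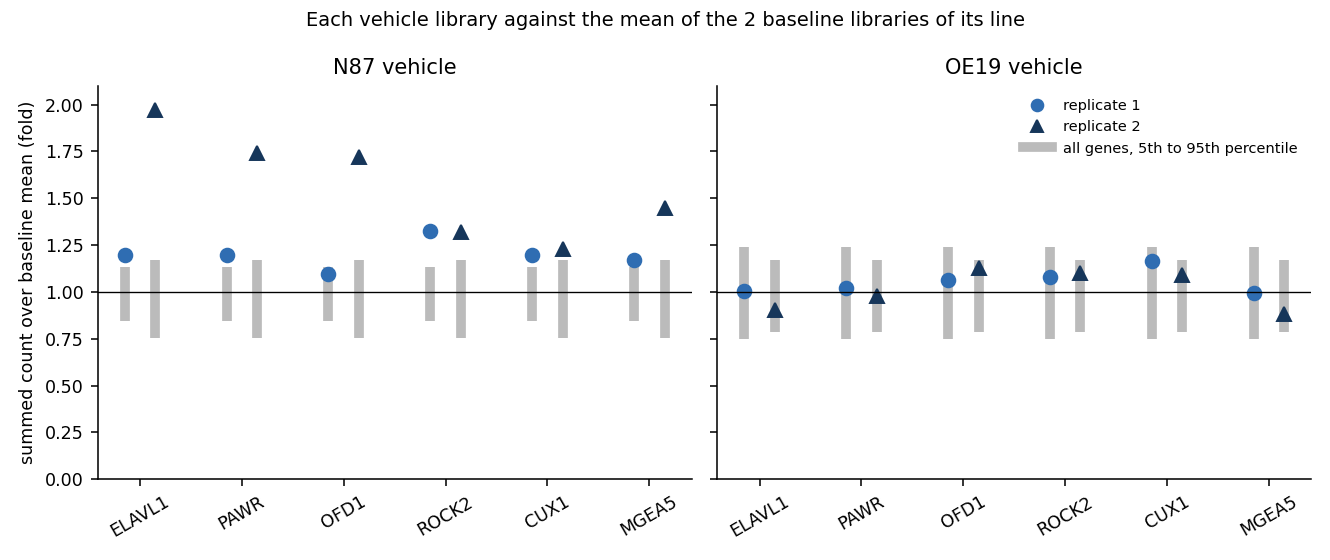
Summed normalized count of each gene in a vehicle library divided by the mean of the 2 baseline libraries of the same line (vertical axis, linear fold), with circles for replicate 1, triangles for replicate 2 and grey bars for the 5th to 95th percentiles over all genes. In N87, ELAVL1, PAWR and OFD1 stand at 1.72-fold to 1.97-fold in replicate 2 and at 1.10-fold to 1.20-fold in replicate 1, while ROCK2 is at 1.32-fold in both. In OE19 all 6 genes lie within the grey bars.

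OE19 cells gave an independent look at the same genes, since no OE19 library was used to choose them. Vehicle and baseline libraries lay close together. ELAVL1 had 1129 and 1017 in vehicle cells, against 1132 and 1119 at baseline (0.953-fold). PAWR had 929 and 889, against 907 and 914 (0.998-fold), and MGEA5 had 1216 and 1084, against 1237 and 1215 (0.938-fold), vehicle cells given before baseline cells. The vehicle and baseline libraries of these 3 genes overlapped.

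OFD1 had 1093 and 1158 in OE19 vehicle cells, against 1098 and 952 at baseline (1.10-fold), again with overlap. In the other two genes the vehicle and baseline libraries did not overlap. ROCK2 had 883 and 899 in vehicle cells, against 845 and 789 at baseline (1.09-fold), and CUX1 had 1857 and 1739.8, against 1633 and 1552 (1.13-fold). With both vehicle libraries above both baseline libraries these were 2 of the 6 genes, where 32.3% of all genes showed the same order. With factors from the control guides the median log2 fold changes over sgRNAs were -0.00174 for ROCK2 and -0.13 for CUX1, below 0, against 0.19 and 0.06 with all sgRNAs. The median of all genes was -0.17 with those factors, against 0.01 with all sgRNAs. The smallest p that an exact permutation test of 2 against 2 libraries can give is 0.333, two-sided, so no single sum could pass 0.05.

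Across sgRNAs in OE19, 17 of 35 log2 fold changes were above 0. The medians were -0.17 ± 0.34 for ELAVL1, -0.01 ± 0.22 for PAWR, 0.24 ± 0.33 for OFD1, 0.19 ± 0.25 for ROCK2, 0.06 ± 0.28 for CUX1 and -0.12 ± 0.44 for MGEA5 (SD over 6 sgRNAs, 5 for OFD1). The rank aggregation over edgeR p-values called 0 of the 6 genes in either direction (lowest adjusted p = 0.999, 0 genes with an unadjusted p under 0.05), where 0% of all genes were called higher and 1.47% lower. DESeq2 p-values also gave 0 of 6. No sgRNA of the 6 genes passed edgeR's adjusted p of 0.05, against 0.0114% of all sgRNAs called higher and 0.893% lower, and 4 had an unadjusted p under 0.05. The lowest sgRNA was HGLibA_37444 of MGEA5, at -1.07, with 39.8 and 37.5 normalized counts in vehicle cells against 66.2 and 95.5 at baseline. The same sgRNA was also the lowest of the 6 genes in N87.

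**Figure D3:**
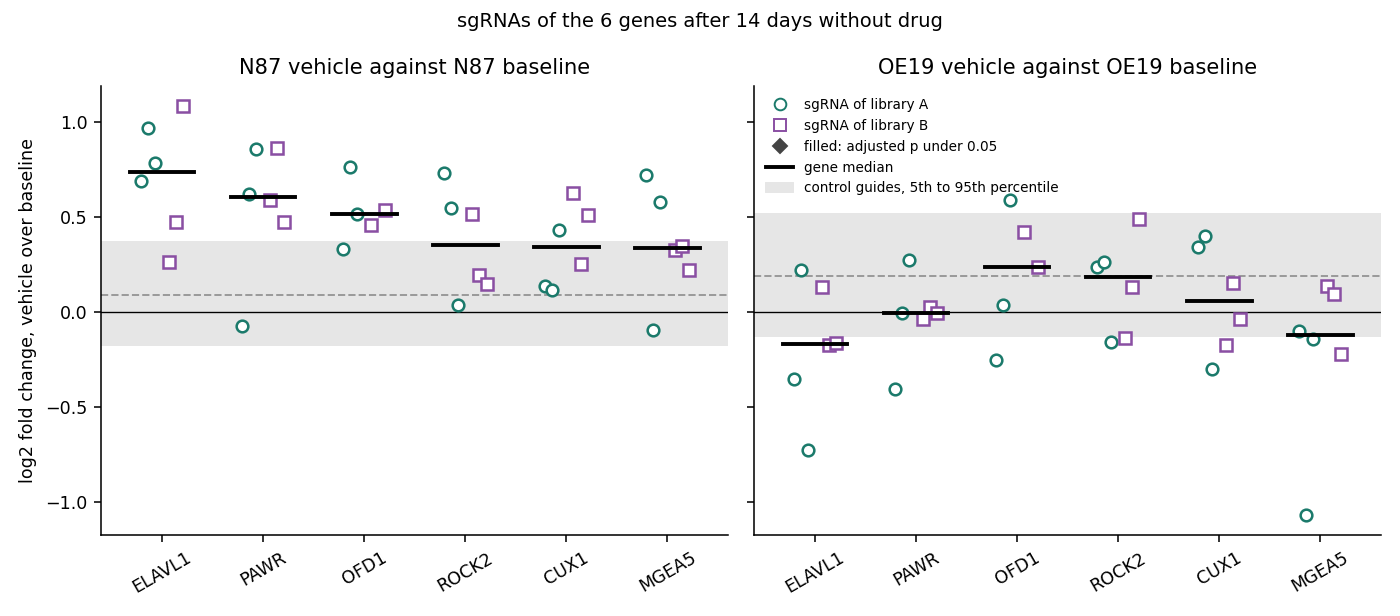
Log2 fold change of each tested sgRNA, vehicle over baseline (vertical axis), for N87 on the left and OE19 on the right, with circles for library A, squares for library B and a black line at the gene median. The grey band is the 5th to 95th percentile range of the control guides and the dashed line their median. In N87, 33 of 35 sgRNAs are above 0, and in OE19 17 of 35 are. No symbol is filled, since no sgRNA passed an adjusted p of 0.05.

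Over the 35 sgRNAs, Pearson's r between the log2 fold changes in N87 and OE19 was 0.10, against 0.38 over all 120694 sgRNAs tested in both lines, and 17 of the 35 were above 0 in both. The 35 come from only 6 genes, which were chosen for high values in N87. This narrows the range on that axis, so the r values cannot be compared and are given as a description. Whether the effect of a gene differs between the lines was not tested, because the N87 values chose the genes.

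**Figure D4:**
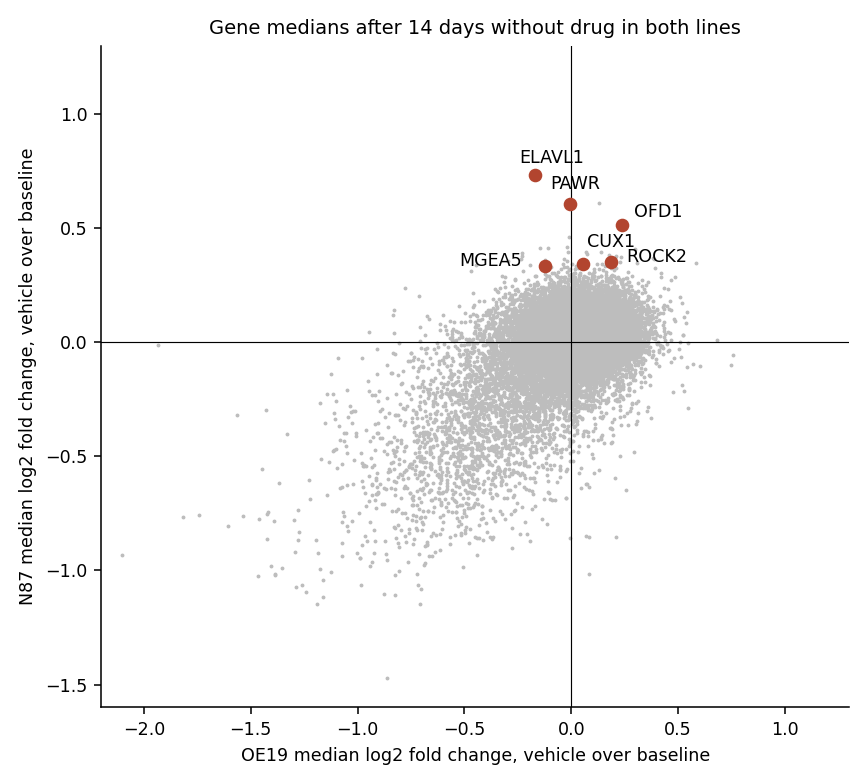
Median log2 fold change over sgRNAs, vehicle over baseline, in OE19 (horizontal axis) and N87 (vertical axis), with 1 grey point per gene and the 6 genes in red. The 6 genes were chosen by the vertical axis, where they lie between 0.34 and 0.74, and along the horizontal axis they spread from -0.17 to 0.24.

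Under lapatinib in N87, ROCK2 and ELAVL1 sums lay above vehicle and the MGEA5 sum below it, while single sgRNAs of the same gene often differed in direction. The comparison shares its vehicle libraries with the one that chose the genes. Vehicle values high by error would make lapatinib over vehicle look lower, and the part of this was not tested. The median fold of sums over all genes was 1.36, with 0.669 and 2.69 at the 5th and 95th percentiles. ROCK2 had 2533.5 and 2709.8 in lapatinib cells, against 1184 and 1179.7 in vehicle cells (2.22-fold). ELAVL1 had 3057 and 3001, against 1399 and 2307 (1.63-fold). In both genes the lapatinib libraries lay above the vehicle libraries, an order that 70.5% of all genes shared.

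MGEA5 stood on the other side, with 1207 and 1242 in N87 lapatinib cells, against 1666 and 2059 in vehicle cells (0.658-fold). It was the 1 gene of the 6 with both lapatinib libraries below both vehicle libraries, as in 17.1% of all genes. Against N87 baseline cells, whose libraries also chose the genes, the fold of MGEA5 was 0.861. PAWR had 1607 and 1805 under lapatinib, against 1117.5 and 1630.2 in vehicle cells (1.24-fold). OFD1 had 1939.7 and 2118, against 1289.7 and 2028 (1.22-fold), and CUX1 had 2037 and 1889, against 1864 and 1916 (1.04-fold). The libraries of these 3 genes overlapped between lapatinib and vehicle.

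Under lapatinib in N87, edgeR called 31.2% of all sgRNAs higher and 29.9% lower, and the calls of single genes stand beside these shares. For ROCK2, 4 of 6 sgRNAs were called higher by edgeR. The largest was HGLibA_50037, with 332 and 432 normalized counts in lapatinib cells against 46.3 and 70.1 in vehicle cells (6.47-fold, adjusted p = 8.57e-07). The sgRNAs HGLibB_42695, HGLibA_50035 and HGLibA_50036 were 3.26-fold, 3.14-fold and 1.76-fold, and the other two sgRNAs of ROCK2 had log2 fold changes of -0.48 and -0.19 that did not pass the test. For ELAVL1, the split followed the library: all 3 sgRNAs of library B were called higher (log2 fold changes 1.54, 0.91 and 1.23), whereas those of library A were at -0.19, -1.16 and -0.70, with the last pair called lower. OFD1 showed the same arrangement, with library B sgRNAs at 0.54 and 0.75 and library A sgRNAs at -0.06, -1.19 and -2.11.

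In PAWR a single sgRNA, HGLibA_43581, was called higher (769 and 643 normalized counts in lapatinib cells against 148 and 219 in vehicle cells, 3.83-fold), and the other 5 had log2 fold changes between -0.98 and -0.18. CUX1 had 1 sgRNA called higher and 3 called lower. MGEA5 had 4 of 6 sgRNAs called lower and none above 0, where 29.9% of all sgRNAs were called lower. Its lowest, HGLibA_37444, had 13.6 and 31.2 normalized counts in lapatinib cells against 105 and 96.8 in vehicle cells (0.230-fold, adjusted p = 0.00153 by edgeR).

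In all, 10 of the 35 sgRNAs were called higher and 11 lower in N87 under lapatinib, where 31.2% of all sgRNAs were called higher and 29.9% lower, so the members' shares were near the background. This split depended on the scaling and on the vehicle library. In fits with 1 vehicle library the calls fell over all sgRNAs as well, so the members' calls there are not counted. With factors from the control guides the split was 8 higher and 15 lower (24.5% and 37.7% of all sgRNAs). With total counts alone it was 6 higher and 22 lower (19.0% and 44.9%). At the gene level the medians were 0.36 ± 1.11 for ELAVL1, -0.28 ± 1.03 for PAWR, -0.06 ± 1.21 for OFD1, 1.18 ± 1.20 for ROCK2, -0.82 ± 0.71 for CUX1 and -1.06 ± 0.79 for MGEA5 (SD over 6 sgRNAs, 5 for OFD1), against -0.09 over all genes. The median of ELAVL1 was -0.16 with total counts alone, where the median of all genes was -0.62. For PAWR, OFD1 and CUX1 the fold of sums was above 1 and the median below 0. The rank aggregation called 0 of the 6 genes in either direction (0 with an unadjusted p under 0.05, and 0 with DESeq2 p-values), with 0% of all genes called higher and 0.0144% lower. The wide scatter of the control guides stands beside these values, and its part in them was not tested.

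In OE19 under lapatinib, CUX1 gave the largest sums, 8370.1 and 3406 in lapatinib cells against 1857 and 1739.8 in vehicle cells (3.27-fold). This came from 1 sgRNA, HGLibB_11792, which had 6657 and 2027 normalized counts in lapatinib cells against 203 and 255 in vehicle cells (18.8-fold, log2 fold change 4.22, edgeR adjusted p = 0.0133). It made up 79.5% and 59.5% of the CUX1 sum in the lapatinib libraries, against 11.0% and 14.7% in the vehicle libraries. Without it, CUX1 stood at 1713 and 1379 under lapatinib, against 1653 and 1484 in vehicle cells. The same sgRNA was 0.586-fold under lapatinib in N87.

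The remaining genes stayed closer to vehicle in OE19. OFD1 had 1769.6 and 1311 in lapatinib cells, against 1093 and 1158 in vehicle cells (1.37-fold). With CUX1 it made 2 genes whose lapatinib libraries both lay above vehicle, as in 36.3% of all genes. ROCK2 had 855 and 839, against 883 and 899 (0.951-fold), and MGEA5 had 809 and 1082, against 1216 and 1084 (0.822-fold), lapatinib given first. These 2 genes lay below vehicle in both libraries, as did 19.3% of all genes. ELAVL1 had 1064 and 1226 under lapatinib, against 1129 and 1017 in vehicle cells (1.07-fold), and PAWR had 997 and 923, against 929 and 889 (1.06-fold), both with overlap.

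The gene medians in OE19 for lapatinib over vehicle were -0.06 ± 0.50 for ELAVL1, -0.05 ± 0.25 for PAWR, 0.09 ± 0.98 for OFD1, -0.09 ± 0.63 for ROCK2, -0.34 ± 1.93 for CUX1 and -0.17 ± 0.70 for MGEA5. The rank aggregation called 0 of the 6 genes (0.0957% of all genes were called higher and 0% lower, and DESeq2 p-values also gave 0 of 6). MGEA5 was the 1 gene with an unadjusted p under 0.05, toward lower values (adjusted p = 0.727 by rank aggregation of edgeR p-values). Of the 35 sgRNAs, edgeR called 1 higher, in CUX1, and 1 lower, the MGEA5 sgRNA HGLibB_30114 (93.0 and 72.9 normalized counts in lapatinib cells against 235 and 173 in vehicle cells, 0.410-fold, adjusted p = 0.0476), where 2.33% of all sgRNAs were called higher and 0.0795% lower. With total counts alone the shares over all sgRNAs were 1.40% and 0.295%, and the same numbers of member sgRNAs were called. The lower call was lost with DESeq2 p-values or size factors and with factors from the control guides. Both calls also needed both vehicle replicates. In fits with 1 library in a group the calls changed over all sgRNAs too, so they are not counted.

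**Figure D5:**
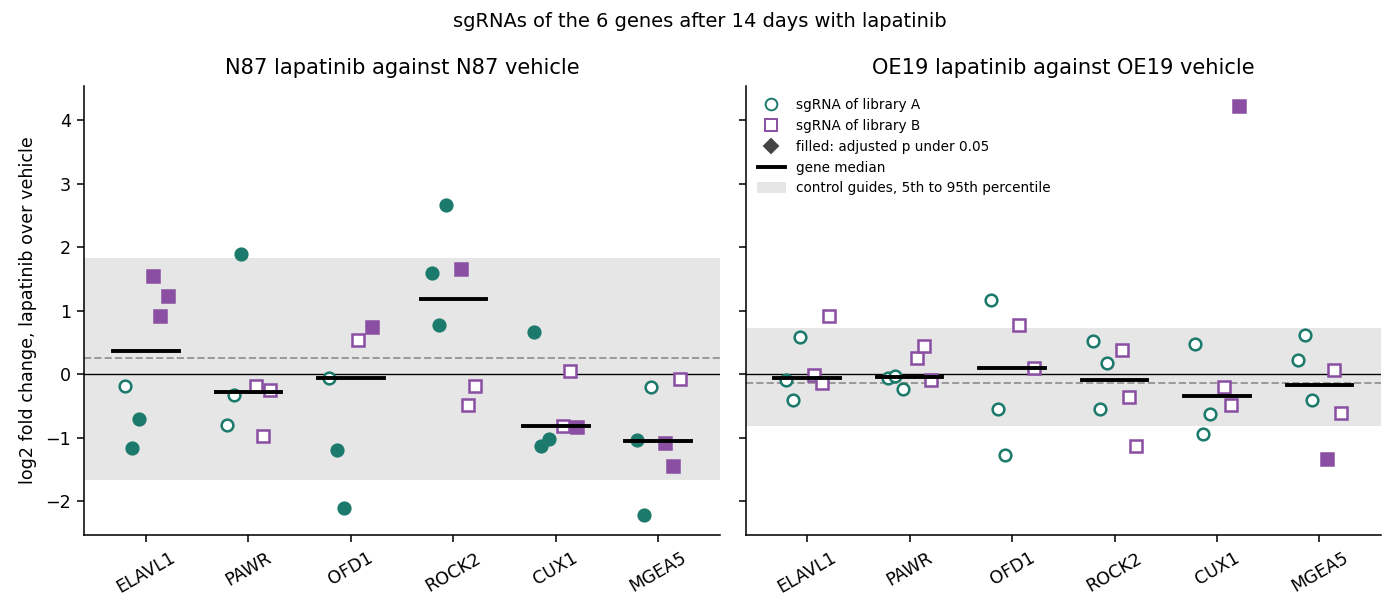
Log2 fold change of each tested sgRNA, lapatinib over vehicle (vertical axis), for N87 on the left and OE19 on the right, with circles for library A, squares for library B, filled symbols for an adjusted p under 0.05 and a black line at the gene median. The grey band is the 5th to 95th percentile range of the control guides, which in N87 runs from -1.65 to 1.81. In N87, 10 of the 35 sgRNAs are called higher and 11 lower, beside 31.2% and 29.9% of all sgRNAs. In OE19 the single CUX1 sgRNA at 4.22 stands above all others.

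Against baseline, lapatinib libraries of N87 gave medians of 1.74 ± 1.27 for ROCK2, 0.94 ± 1.00 for ELAVL1, 0.27 ± 1.21 for PAWR, 0.27 ± 1.16 for OFD1, -0.25 ± 0.64 for CUX1 and -0.53 ± 0.97 for MGEA5. This comparison shares its baseline libraries with the one that chose the genes. The rank aggregation called 0 of 6 genes (lowest adjusted p = 0.641, for ROCK2, 2 genes with an unadjusted p under 0.05 and 0 called with DESeq2 p-values), with 0% of all genes called higher and 0.134% lower. By edgeR, 13 of 35 sgRNAs were called higher and 5 lower, against 33.7% and 33.6% of all sgRNAs. With factors from the control guides the split was 11 higher and 10 lower (24.5% and 44.8% of all sgRNAs), and with total counts alone 10 higher and 12 lower (20.8% and 49.3%). The split also changed when 1 library was left out. The shares called over all sgRNAs changed with it, so those counts are not given.

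In OE19 the same comparison, which shares no library with the choice of the genes, gave medians of -0.14 ± 0.42 for ELAVL1, 0.02 ± 0.30 for PAWR, 0.36 ± 0.82 for OFD1, -0.07 ± 0.49 for ROCK2, -0.33 ± 1.90 for CUX1 and -0.47 ± 0.54 for MGEA5. MGEA5 had the lowest adjusted p of the rank aggregation, 0.236, toward lower values, and was the 1 gene with an unadjusted p under 0.05. None of the 6 was called, with edgeR or with DESeq2 p-values, where 0.124% of all genes were called higher and 0.12% lower. No sgRNA of the 6 genes was called either, and 9 had an unadjusted p under 0.05. Over all sgRNAs, edgeR called 0.000817% higher and 0% lower.

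The pathways around the 6 genes were read from 9 lists holding 109 genes, all of which could be tested. For vehicle over baseline in N87, 0 of the 109 were called higher and 2 lower, where 0.0574% of all genes were called higher and 2.28% lower, so the list genes were near the background. In OE19 0 were called in either direction by the rank aggregation of edgeR p-values, where 0% of all genes were called higher and 1.47% lower. The median of the list genes was 0.04 in N87, against 0.02 over all genes, and -0.01 in OE19, against 0.01 over all genes. For lapatinib over vehicle 0 of 109 were called in either line. Of all genes, 0% were called higher and 0.0144% lower in N87, and 0.0957% higher and 0% lower in OE19.

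Around ELAVL1, the 10 ELAVL family and AU-rich element binding proteins had a median of 0.03 in N87 vehicle over baseline, and the largest in absolute size was that of TIAL1 (0.22 ± 0.20, adjusted p = 0.960), which also binds AU-rich elements. The 5 nuclear partners of ELAVL1 had a median of 0.04, led by ANP32A (0.09 ± 0.12). ELAVL1 was itself chosen by its values in this comparison (median 0.74), so the medians of these 15 genes cannot be compared with it.

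The 12 partners of PAWR and factors of its turnover had a median of -0.01 in N87. The median of largest absolute size, below 0, was that of HSPA5 (GRP78, an endoplasmic reticulum chaperone that binds PAWR at the cell surface), at -0.61 ± 0.71 (adjusted p = 0.744). Around OFD1, the 13 genes of centriolar satellites had a median of 0.07, with PIBF1 (CEP90, a satellite protein) the largest in absolute size at 0.33 ± 0.31 (adjusted p = 0.432) in N87 and at -0.09 ± 0.33 in OE19. Of the 16 genes of distal appendages and intraflagellar transport, 1 was called lower in N87, where 2.28% of all genes were. This was CEP97, which works with CP110 in capping centrioles and keeping cilia from forming, with 600.1 and 466 summed normalized counts in vehicle cells against 689 and 709.7 at baseline (median log2 fold change -0.64 ± 0.46, adjusted p = 0.0162). The call was lost in the fit of all libraries of the line (adjusted p = 0.0864) and without vehicle replicate 2, vehicle replicate 1 or baseline replicate 2. In OE19 CEP97 was not called, and it had 478 and 564 in vehicle cells, against 688 and 758 at baseline. Both vehicle libraries lay below both baseline libraries there, as in 21.4% of all genes.

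Around ROCK2, the list gene of largest absolute median was PPP1CB, a catalytic subunit of myosin phosphatase, which ROCK kinases inhibit through its targeting subunit. It had 392 and 431 summed normalized counts in N87 vehicle cells, against 621 and 562 at baseline (median -0.74 ± 0.34, adjusted p = 0.0508). In OE19 PPP1CB was not called, and it had 616 and 561 in vehicle cells, against 762 and 812 at baseline. Vehicle libraries lay below baseline libraries there, as in 21.4% of all genes. ROCK1, the paralog of ROCK2, was picked out after its values were seen. It had 1151 and 1317 in N87 vehicle cells, against 956 and 979.75 at baseline, and its median of 0.34 ± 0.13 beside the 0.35 of ROCK2 did not pass the test (adjusted p = 0.141). Leaving out 1 library moved ROCK1 to either side of the threshold. These are the libraries that chose ROCK2, so this is a description. In OE19 ROCK1 had a median of 0.15 ± 0.17, against 0.19 for ROCK2.

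The 6 genes of the CUT homeobox family had a median of 0.10 in N87, and none was called. The 7 myeloid tumour suppressors of chromosome arm 7q had a median of 0.04, with LUC7L2, a splicing factor, the largest in absolute size at -0.22 ± 0.25. Around MGEA5, the 13 genes of O-GlcNAc cycling and hexosamine synthesis had a median of 0.02 in N87, and 1 was called lower, again beside 2.28% of all genes. This was HCFC1, a transcriptional cofactor cleaved by the O-GlcNAc transferase, with 579 and 484 in vehicle cells against 842 and 773 at baseline (median -0.58 ± 0.48, adjusted p = 0.00101). Its call was lost without vehicle replicate 1 or vehicle replicate 2. In OE19 HCFC1 was not called, and it had 528 and 641 in vehicle cells, against 814 and 890 at baseline. Vehicle libraries lay below baseline libraries there, as in 21.4% of all genes. OGT, the transferase that adds what MGEA5 removes, was picked out after its values were seen and had a median of -0.12 ± 0.16 in N87 and -0.08 ± 0.49 in OE19, neither called (adjusted p = 1). HCFC1 was also the 1 list gene called for lapatinib over baseline in N87 (median -2.87, adjusted p = 0.0250), a call lost in 8 of its 12 alternatives.

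Likeness of pattern was measured over the 12 libraries as Pearson's r between gene profiles, a profile being the median over sgRNAs of the log2 normalized count relative to the baseline of the line. Among 19923 genes compared, PAWR and OFD1 were each among the 3 genes most like the other (r = 0.87), and MGEA5 was among the 3 most like CUX1 (r = 0.93). ELAVL1 was followed by UBXN4, PPARGC1A and MEAF6 (r = 0.95, 0.95 and 0.93), and ROCK2 by MYOT, PTH1R and hsa-mir-2113 (r = 0.99 for each). The remaining neighbours were SOX4 and HINT3 for PAWR (0.93 and 0.88), ZNF490 and GPD1L for OFD1 (0.84 and 0.83), IL15RA and UBQLN2 for CUX1 (0.93 each), and ERP29, PALLD and PAGE4 for MGEA5 (0.95 each). The profiles share the same 12 libraries, among them the N87 vehicle and baseline libraries that chose the 6 genes, so likeness between members restates in part the values of the choice. The profiles of PAWR and OFD1 were both highest in N87 vehicle replicate 2 (0.86 for PAWR and 0.84 for OFD1 on the log2 scale). That of ROCK2 was highest in the N87 lapatinib libraries (1.72 and 1.82, against 0.40 and 0.46 in N87 vehicle cells).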

How the data were processed

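The deposited table holds raw counts of reads per sgRNA for 12 libraries. The authors amplified and sequenced the integrated sgRNAs, mapped the reads to the library with Bowtie (Bowtie2 2.3.2 in the submitters' notes) and merged the counts. The R (4.3.3) packages were edgeR 4.0.16 and, as an alternative, DESeq2 1.42.0, with limma version 3.58.1 loaded by edgeR. Ranks and figures were made in Python 3.11.15 (matplotlib 3.10.9, pandas 2.3.3, scipy 1.17.1, numpy 2.4.6). Each comparison used its 4 libraries and sgRNAs with at least 40 counts over them, in edgeR's quasi-likelihood test with TMM factors and no replicate block. One-sided p-values were ranked and aggregated per gene (robust rank aggregation, ranks below 0.05, at least 2 tested sgRNAs). Adjusted p-values are Benjamini-Hochberg values over all sgRNAs or genes, with a threshold of 0.05. Folds use a pseudocount of 1. PCR copies of a molecule could not be recognized in the reads. The replicates are infections, and the sgRNA p-values measure the spread between 2 libraries a group. The gene p-values measure how the sgRNAs of a gene rank among all sgRNAs of the same libraries. The steps were tested on simulated counts. The members and lists were chosen with earlier results of these data known. The genes named by rule are the members, list genes that passed the threshold in any comparison, the gene of largest absolute median per list (at least 4 tested sgRNAs), the 3 genes most like each member, and the 2 genes at the border of the threshold. ROCK1 and OGT fall outside this rule and were picked out after their values were seen. A list gene and a list summary that this rule would give are not reported here. The alternatives tried were other scaling factors, DESeq2, no filter, a replicate block, all libraries of a line in 1 fit, another rank limit, a mean over sgRNAs, other pseudocounts and leaving out each library.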

Additional observations from a re-analysis of the deposited data

Results flagged for a closer look

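ROCK2 was picked out because its lapatinib libraries lay on opposite sides of vehicle in the 2 lines. In N87 both lapatinib libraries lay above both vehicle libraries (2533.5 and 2709.8 against 1184 and 1179.7 summed normalized counts), and in OE19 both lay below (855 and 839 against 883 and 899). Of all genes, 70.5% lay above vehicle in the same way in N87 and 19.3% below in OE19. The median log2 fold change over sgRNAs, lapatinib over vehicle, was 1.18 in N87 and -0.09 in OE19, a difference (N87 minus OE19) of 1.27. The OE19 median of ROCK2 was 0.0252, above 0, with factors from the control guides. The median of all genes was 0.10 with those factors and -0.02 with all sgRNAs, so ROCK2 lay below it in both. The difference was not tested. The doses differed between the lines (0.5 µM in N87 and 1 µM in OE19), and the N87 vehicle libraries are among those that chose the gene.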

How the results depend on the processing

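For vehicle over baseline in N87, all 6 genes were called with DESeq2 size factors, control guide factors, total counts, no filter, the rank limit of 0.25 and the replicate block. With DESeq2 p-values and in the fit of all libraries of the line 5 were called, and over the fits that left out 1 library 0 to 4, with 0 without vehicle replicate 2. These counts reuse the libraries that chose the genes, so they describe the choice and are no sign of stability. Genes called lower numbered 828 at the rank limit of 0.25 and 477 at 0.05. No gene of the 6 was called in the other comparisons under any alternative run. The labels share replicate numbers but do not say which libraries share an infection. With 2 pairs per comparison and no such label, the numbers were not taken as pairs (correlation of replicate differences, vehicle and baseline, 0.238 in N87 and 0.0746 in OE19). A shared infection per number was not tested. The replicate block left 6 genes called, gave 16 genes called higher in N87 against 12 without it, and ended the calls of CEP97 (adjusted p = 0.0877) and, for lapatinib over baseline, HCFC1 (0.546).

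The medians that changed sign were all of genes not called, and the cause was not tested. Control guide factors and total counts also moved the median of all genes, as given at the end of this section. With control guide factors, OE19 vehicle over baseline gave -0.00174 for ROCK2 and -0.13 for CUX1, OE19 lapatinib over vehicle 0.0664 for ELAVL1, 0.0715 for PAWR and 0.0252 for ROCK2, N87 lapatinib over baseline -0.0995 for PAWR and -0.0952 for OFD1, and OE19 lapatinib over baseline -0.0573 for PAWR. With total counts alone, ELAVL1 was -0.16 for N87 lapatinib over vehicle and OFD1 -0.33 for OE19 lapatinib over vehicle. Over baseline, total counts gave -0.263 for PAWR and -0.259 for OFD1 in N87 lapatinib cells and -0.446 for PAWR and -0.10 for OFD1 in OE19 lapatinib cells. With no filter OFD1 was -0.22 for OE19 lapatinib over vehicle and -0.0666 for N87 lapatinib over baseline. In the fit of all libraries PAWR was 0.0157 for OE19 vehicle over baseline. The mean over sgRNAs was 0.14 for ELAVL1, 0.0482 for PAWR and 0.40 for CUX1 (OE19 lapatinib over vehicle), and 0.00204 for ROCK2 and 0.50 for CUX1 (OE19 lapatinib over baseline).

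Leaving out each library in turn, PAWR ranged from -0.0689 to 0.0229 for OE19 vehicle over baseline. For N87 lapatinib over vehicle, PAWR ranged from -0.558 to 0.0141 and OFD1 from -0.269 to 0.139. For OE19 lapatinib over vehicle the ranges were -0.251 to 0.199 for ELAVL1, -0.0738 to 0.0890 for PAWR, -0.104 to 0.290 for OFD1, -0.273 to 0.0491 for ROCK2, -0.721 to 0.00741 for CUX1 and -0.496 to 0.0614 for MGEA5. For OE19 lapatinib over baseline they were -0.221 to 0.0739 for ELAVL1, -0.0585 to 0.209 for PAWR and -0.119 to 0.00415 for ROCK2. Control guide factors set the median of all genes at -0.37 for N87 lapatinib over vehicle and -0.17 for OE19 vehicle over baseline, against -0.09 and 0.01 with all sgRNAs. For OE19 lapatinib over vehicle they set it at 0.10, against -0.02. For lapatinib over baseline it was -0.47 in N87 and -0.10 in OE19, against -0.10 and -0.02 with all sgRNAs. Total counts set it at -0.62 for N87 and -0.46 for OE19 lapatinib over vehicle. For lapatinib over baseline they set it at -0.63 in N87 and -0.49 in OE19. Each group holds 2 libraries, and the lowest median depth was 57 reads per sgRNA.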
